A study of Rattus norvegicus with 8 samples.

Results

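Heat shock and unfolded protein response genes were followed as a set of 31 named members in the rat hippocampus. The set holds 15 heat shock members, of which 13 act in the cytosol or nucleus and 2 in mitochondria, and 16 members of the endoplasmic reticulum and its stress response. Members were found on the arrays by gene symbol, with older symbols accepted. Of the 31, 30 had at least 1 probe, and these 30 are set against 18803 features in all, a feature being a gene by its brightest probe or a probe without a gene name. No probe carried the name Hspa1a.

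Hippocampal RNA came from male Sprague Dawley rats aged 3 months in 2 groups of 4 animals. One group received vehicle and the other received yohimbine together with imipramine (Y+I), each for 7 days, with tissue taken 2 h after treatment. The former is an antagonist of alpha2-adrenoceptors, and the latter, a tricyclic antidepressant, slows the reuptake of noradrenaline and serotonin. Animals given either drug alone were not analysed here, doses are not given in the sources used here, and the comparison asks how messenger RNA differed under the combination. Each animal had its own 1-colour array, so every group mean rests on n = 4. Values are log2 signal relative to the 75th percentile of the same array. A value of 0 is thus the signal that 75% of the spots lie below, and a value compares animals for one probe but not one probe with another.

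Heat shock proteins are chaperones that bind unfolded or partly folded proteins. The transcription factor Hsf1 raises their messenger RNA when misfolded proteins accumulate in the cytosol. The unfolded protein response does the same for the endoplasmic reticulum, through the sensors Ern1 (IRE1), Atf6 and Eif2ak3 (PERK), with Xbp1, Atf4 and Ddit3 (CHOP) as transcription factors further down. Neurons keep high levels of constitutive chaperones such as Hspa8 and the Hsp90 proteins, and inducible forms such as Hspa1b are usually low in unstressed brain.

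No member passed the test for a difference between the groups. At a limma adjusted p under 0.05 over all features, 0 of the 30 measured members passed, where 2.33% of all features did. At an unadjusted limma p under 0.05 the count was again 0 of 30, where 15.6% of all features passed (6.46% higher in Y+I and 9.16% lower). By the probe used, the values of the Y+I animals overlapped those of the vehicle animals in each of the 30 members. The groups did not overlap for 11.7% of all features (5.04% higher and 6.65% lower). The count of members passing at the adjusted threshold stayed at 0 under all 20 other ways of processing that were tried. The members nearest to the threshold were the co-chaperone genes Dnaja1 and Hsph1 (limma adjusted p = 0.335 and 0.348), and 16.6% of all features had a smaller p than Dnaja1.

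The intervals show what size of difference the 4 animals per group leave room for. The 95% limma interval, unadjusted for the number of genes, lay within a 1.5-fold difference in either direction for 24 of the 30 members (80.0%), against 61.5% of all features. It lay within 2-fold for 29 of the 30, against 88.6% of all features. The 6 members whose interval reached past 1.5-fold were Calr, Creld2, Cryab, Dnajb5, Ern1 and Trib3, and only that of Dnajb5 reached past 2-fold. The median distance from the estimate to either end of the interval was 0.28 log2 units over the members and 0.33 over all features. The difference without regard to sign had a median of 0.14 over the members and 0.15 over all features. By the probe used, 2 of the 30 members were not well above background on every array, against 3622 of 18803 features. The part of dim probes in the interval widths was not tested.

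**Figure D1:**
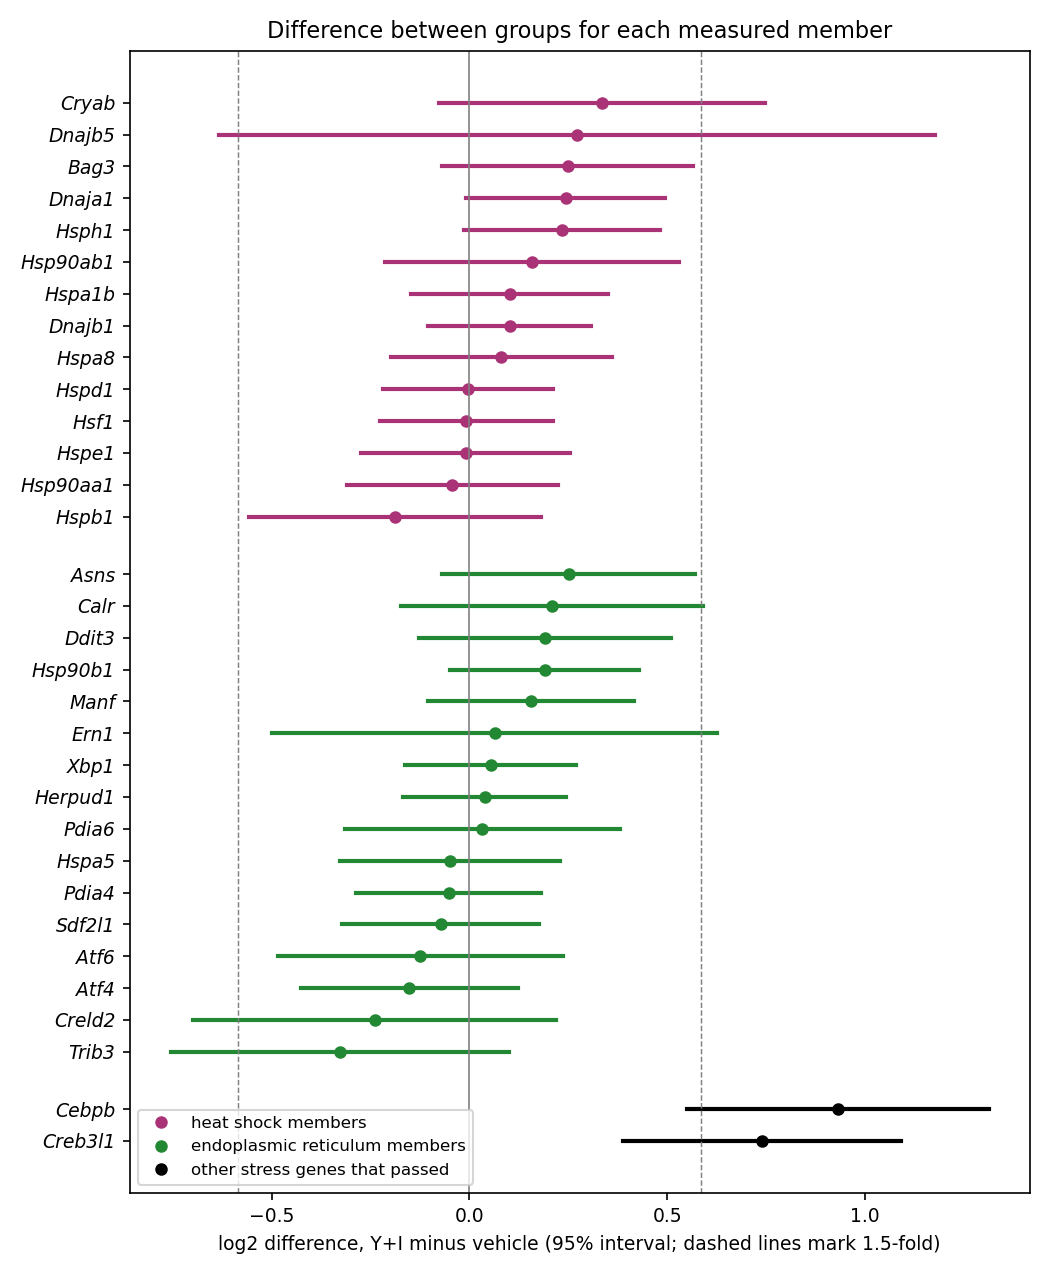
Log2 difference between Y+I and vehicle (horizontal axis) for each measured member, with points for the estimate and lines for the 95% limma interval over 4 animals per group; dashed lines mark 1.5-fold. The interval of every member spans 0. Cebpb and Creb3l1, non-members of related lists, are drawn because they passed the adjusted threshold. Their intervals leave out 0 by that choice.

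The groups differed in the share of spots with signal. In vehicle, 76.4% to 79.7% of 58717 noncontrol spots were well above background, and in Y+I 64.4% to 74.8%. The 75th percentile of signal, on which each array was centred, was 1939 to 2106 in vehicle. In Y+I animals 1 to 4 it was 1883, 1408, 1971 and 1045. The 8 arrays were scanned as 1 slide whose rows each held 1 group, so the effects of row and of treatment cannot be told apart. The SD between animals was larger in Y+I than in vehicle for 24 of the 30 members (80.0%) and for 77.8% of all features. Y+I animal 2 stood apart in the signal along transcripts. Probes well above background on all 8 arrays and at least 300 bases apart were compared in 1169 transcripts. The upstream minus the downstream signal, each relative to its vehicle mean, had a median of -0.28 in Y+I animal 2. The median was -0.04 to 0.03 in the vehicle animals and 0.0012 to 0.13 in the other Y+I animals. Labelling started from an oligo-dT primer at the 3′ end, per the labels' protocols. Y+I animal 2 was the highest or the lowest of its group in 21 of the 30 members (70.0%) and in 61.0% of all features. Vehicle animals 1 and 3 were close to this, with 20 and 19 of the 30 members and 58.0% and 58.1% of all features. Without Y+I animal 2, 0 members passed the adjusted threshold and 5 had an unadjusted limma p under 0.05 (Asns, Atf4, Dnajb5, Hsp90ab1 and Hsph1), where 17.0% of all features did.

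**Figure D2:**
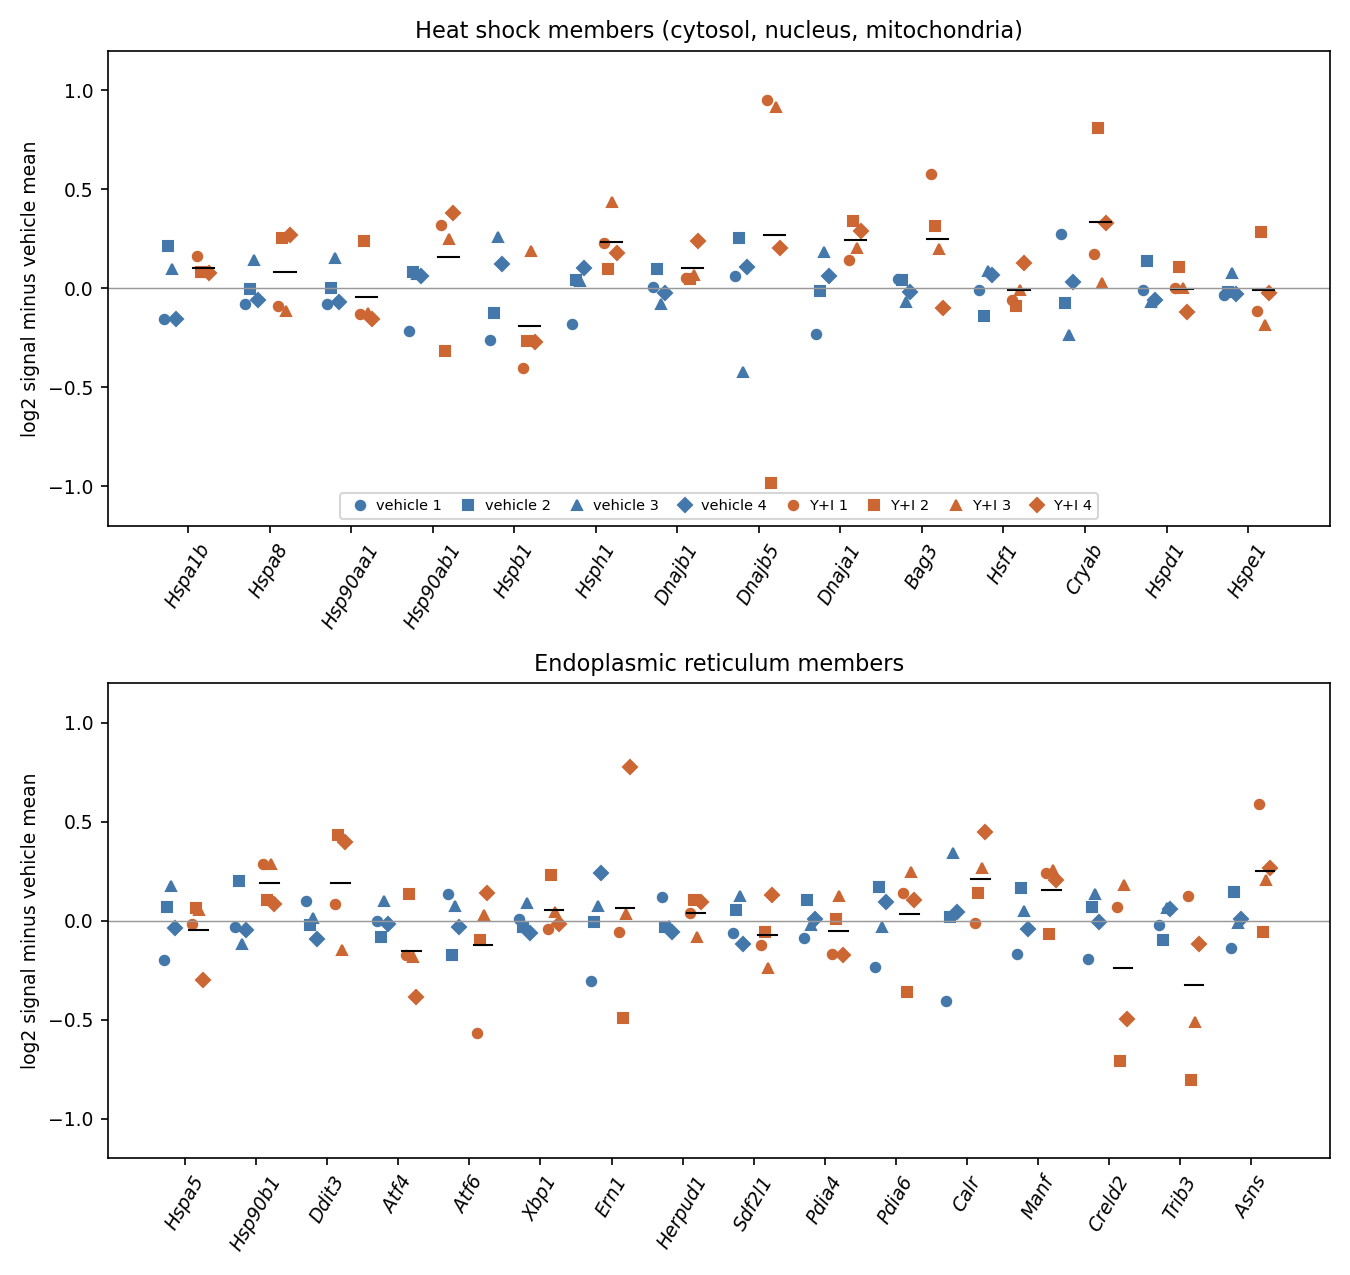
Log2 signal of each measured member in each animal minus the vehicle mean of that member (vertical axis), for heat shock members (top) and members of the endoplasmic reticulum (bottom). Blue marks are vehicle, orange marks are Y+I, the shape gives the animal number, and black lines are Y+I means; the marks of the groups overlap in all 30 members, and the largest spread is that of Dnajb5.

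Hsf1, the factor that drives the heat shock genes, had a difference close to 0. It measured 0.38, 0.25, 0.48 and 0.46 in vehicle animals 1 to 4 and 0.33, 0.30, 0.38 and 0.52 in Y+I animals 1 to 4. The difference was -0.0077 ± 0.096 log2 units (SE, limma adjusted p = 0.981). Its messenger RNA does not show the state of the protein, which is controlled mainly after translation.

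The promoters of some members carry letters that match the sequences these factors are known to bind. RefSeq windows on rat assembly GRCr8, from 250 bases before the gene start to 50 after it, were found for 23 of the 31 members. The heat shock element was searched as the 3 blocks GAA, TTC and GAA with 2 free bases between neighbours, and the endoplasmic reticulum stress response element as CCAAT and CCACG with 9 free bases between them, each on both strands, as were the other motifs below. The heat shock element occurred in 5 of the 23 windows (21.7%), those of Dnaja1, Hspa8, Hspd1, Hspe1 and Hsph1, and in 0.798% of 33469 windows. The endoplasmic reticulum element also occurred in 5 of the 23, those of Calr, Creld2, Hsp90b1, Hspa5 and Xbp1, and in 0.0657% of all windows. The amino acid response element TGATGNAA occurred in 2 of the 23 (Herpud1 and Trib3) and in 3.98% of all windows, and the cyclic AMP response element TGACGTCA in 1 (Hsp90ab1) and in 1.83% of all windows. These are matches of letters only, and no match overlapped one of another motif.

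The stretches before the gene start of 5 members are shown because they hold matches to the element of one or the other stress response, with matched letters in capitals. Hsph1 lies on the plus strand at chr12:10427118-10427367, Hspa8 on the plus strand at chr8:50080264-50080513, Hspe1 on the plus strand at chr9:64084077-64084326, Hspa5 on the plus strand at chr3:38452766-38453015 and Hsp90b1 on the minus strand at chr7:23012294-23012543, all on GRCr8.
Hsph1: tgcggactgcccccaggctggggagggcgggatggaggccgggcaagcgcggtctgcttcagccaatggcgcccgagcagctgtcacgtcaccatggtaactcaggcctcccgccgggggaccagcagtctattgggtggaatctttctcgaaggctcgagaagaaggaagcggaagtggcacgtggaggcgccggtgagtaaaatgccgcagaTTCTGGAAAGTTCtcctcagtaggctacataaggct
Hspa8: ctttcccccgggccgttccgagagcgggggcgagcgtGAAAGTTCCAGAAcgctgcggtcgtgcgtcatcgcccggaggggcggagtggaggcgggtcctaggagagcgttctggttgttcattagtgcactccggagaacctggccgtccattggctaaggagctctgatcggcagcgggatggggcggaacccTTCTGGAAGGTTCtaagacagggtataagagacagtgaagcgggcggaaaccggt
Hspe1: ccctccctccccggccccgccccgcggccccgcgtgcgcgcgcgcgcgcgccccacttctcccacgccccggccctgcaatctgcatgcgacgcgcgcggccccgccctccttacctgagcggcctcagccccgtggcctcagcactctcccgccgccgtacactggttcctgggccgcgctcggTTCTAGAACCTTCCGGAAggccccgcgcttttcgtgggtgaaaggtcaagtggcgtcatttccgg
Hspa5: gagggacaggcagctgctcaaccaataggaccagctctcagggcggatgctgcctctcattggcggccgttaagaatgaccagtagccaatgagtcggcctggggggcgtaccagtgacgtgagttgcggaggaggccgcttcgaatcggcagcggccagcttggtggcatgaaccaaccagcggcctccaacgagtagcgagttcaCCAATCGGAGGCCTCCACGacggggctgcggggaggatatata
Hsp90b1: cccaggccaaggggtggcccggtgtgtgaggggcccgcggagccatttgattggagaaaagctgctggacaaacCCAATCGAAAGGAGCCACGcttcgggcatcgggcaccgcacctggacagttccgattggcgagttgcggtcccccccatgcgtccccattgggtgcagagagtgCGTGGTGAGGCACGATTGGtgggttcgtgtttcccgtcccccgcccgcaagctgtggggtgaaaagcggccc
The capitals in the first 3 mark the heat shock element, which occurs at 1 place before Hsph1 and at 2 places before Hspa8. Before Hspe1, 2 matches on opposite strands overlap. Hspe1 and Hspd1 are neighbours read in opposite directions, and their windows share 211 bases, so both hold the same pair of matches. The capitals in the last 2 mark the endoplasmic reticulum element, at 1 place before Hspa5 and 2 before Hsp90b1. Of the 10 members with either element, 0 passed at an adjusted p under 0.05 in limma, where 2.33% of all features did. At an unadjusted limma p under 0.05 the count was also 0, where 15.6% of all features passed.

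The Hsp70 chaperones Hspa1b and Hspa8 did not differ beyond the spread between animals. Hspa1b, the stress-inducible form, measured -1.52, -1.15, -1.26 and -1.52 in vehicle and -1.20, -1.28, -1.28 and -1.28 in Y+I. The Y+I values thus lay inside the vehicle range, with a difference of 0.10 ± 0.11 (SE, limma adjusted p = 0.715) and an interval of 0.903-fold to 1.27-fold. Its probe lies at chr20:3957864-3957923 on rat build rn4, the build of the array design. A second Hspa1b probe was not well above background on any of the 8 arrays and was not kept. It measured -9.10, -9.16, -9.22 and -9.61 in vehicle and -8.19, -7.67, -7.27 and -8.70 in Y+I, a difference of 1.32 between dim spots. With no filter on background, 86.5% of the features that changed were higher in Y+I. Hspa1a and Hspa1b are near-identical copies, and whether the Hspa1b probe also captures Hspa1a messenger RNA was not tested.

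Hspa8, the constitutive Hsp70 chaperone, had 4 probes, and they did not move together within animals. The probe nearest to the 3′ end measured 6.48, 6.55, 6.70 and 6.50 in vehicle and 6.47, 6.81, 6.44 and 6.83 in Y+I, a difference of 0.08 ± 0.12 (SE, limma adjusted p = 0.810). The probe that starts at base 483 of the transcript measured 1.38, 1.75, 1.56 and 1.64 in vehicle and 1.93, 0.64, 1.90 and 1.01 in Y+I, a difference of -0.21. In Y+I animals 2 and 4 the signal was therefore low at the upstream probe and high at the downstream probe, and in Y+I animals 1 and 3 it was the reverse. The probe from base 523 split the Y+I animals as the probe from base 483 did, with a difference of -0.22. The probe from base 1800 gave a difference of 0.07, with values of 4.75, 4.83, 4.99 and 4.81 in vehicle and 4.92, 5.09, 4.77 and 4.89 in Y+I. There Y+I animal 2 was the highest of the 8 animals, and Y+I animals 1 and 4 both lay inside the vehicle range. The sequences of the 4 probes are given in order of position because the sign of the Hspa8 difference turns on which of them is read, and capitals mark the 20 bases that the first pair shares.
Hspa8 from base 483: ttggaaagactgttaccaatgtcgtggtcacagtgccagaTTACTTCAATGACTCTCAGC
Hspa8 from base 523: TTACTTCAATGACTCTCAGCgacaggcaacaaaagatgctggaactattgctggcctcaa
Hspa8 from base 1800: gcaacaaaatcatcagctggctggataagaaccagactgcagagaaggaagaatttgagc
Hspa8 from base 1860: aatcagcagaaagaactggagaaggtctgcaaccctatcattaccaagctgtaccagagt
Upstream minus downstream signal of Hspa8, relative to vehicle, was 0.44, -1.19, 0.44 and -0.84 in Y+I animals 1 to 4, a wider range than that of the vehicle animals, -0.16 to 0.17. Over all 1169 transcripts the medians of Y+I animals 1 to 4 were 0.07, -0.28, 0.13 and 0.0012. Y+I animal 2 was thus low at the upstream end in Hspa8 and over all transcripts, whereas Y+I animal 4 was low there in Hspa8 and had a median near 0 over all transcripts. Y+I animals 2 and 4 also had the lowest 75th percentile of signal of the 8 arrays (1408 and 1045). The part of either measure in the Hspa8 values was not tested.

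**Figure D3:**
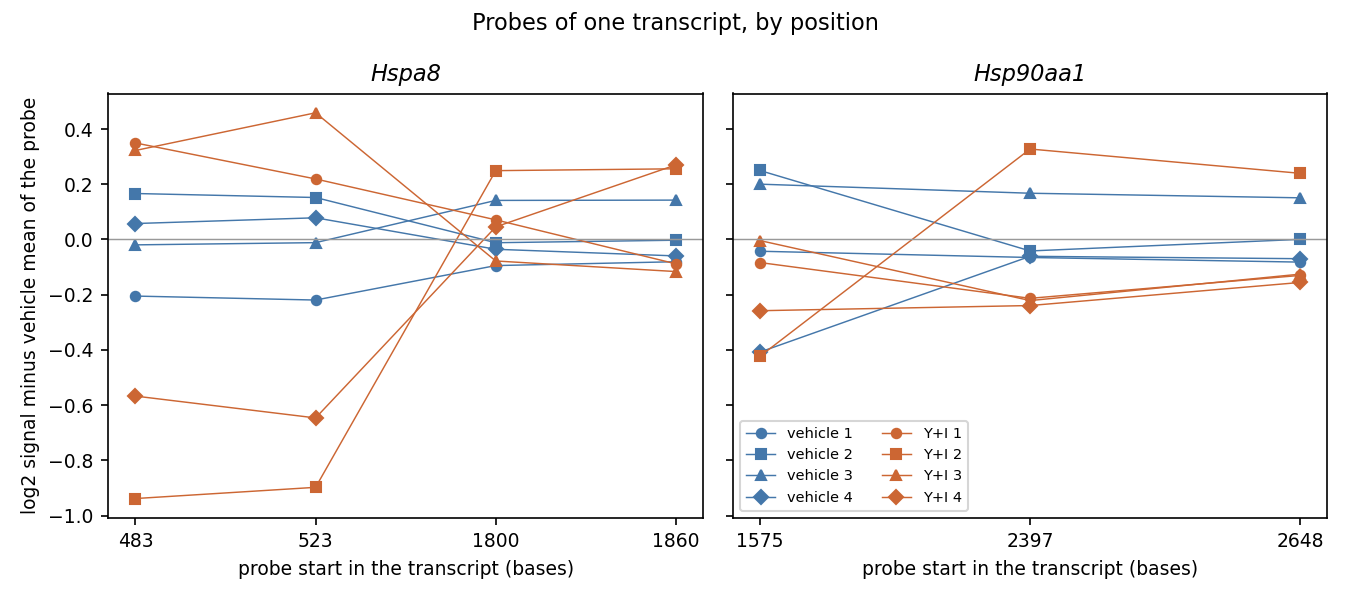
Log2 signal minus the vehicle mean of the probe (vertical axis) against the start of each probe in the transcript (horizontal axis, bases, evenly spaced marks) for Hspa8 (left) and Hsp90aa1 (right); each line is 1 animal. At the upstream Hspa8 probes Y+I animals 2 and 4 lie below all other animals, and at the probe from base 1860 they lie above them.

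Hsp90 genes, which encode chaperones of kinases and steroid receptors, did not pass the test. Hsp90aa1 measured 5.24, 5.32, 5.47 and 5.25 in vehicle and 5.19, 5.56, 5.19 and 5.16 in Y+I, a difference of -0.04 ± 0.12 (SE, limma adjusted p = 0.905). Y+I animal 2 lay above the other 7 animals and the remaining Y+I animals lay below all vehicle animals. Its other probes, from bases 1575 and 2397, gave -0.19 and -0.09. At the probe from base 1575 the value of Y+I animal 2 was the lowest of the 8 (2.75), so that this animal was the highest at one end of the transcript and the lowest at the other.

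Hsp90ab1, the constitutive form, measured 3.83, 4.12, 4.11 and 4.10 in vehicle and 4.36, 3.72, 4.29 and 4.42 in Y+I, a difference of 0.16 ± 0.16 (SE, limma adjusted p = 0.701). In Y+I animals 1, 3 and 4 it was above every vehicle animal, and in Y+I animal 2 it was below all of them. A second probe gave 0.10.

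The co-chaperones held the heat shock members with the smallest p. Co-chaperones of the DnaJ family deliver clients to Hsp70 and start its ATP cycle, while Hsph1 and Bag3 exchange its nucleotide. Dnaja1 measured 2.79, 3.01, 3.20 and 3.08 in vehicle and 3.16, 3.36, 3.23 and 3.31 in Y+I, a difference of 0.24 ± 0.11 (SE, limma adjusted p = 0.335). Vehicle animal 3 lay between the Y+I animals, and the other 3 vehicle animals lay below them. Hsph1, also known as Hsp110, measured -1.01, -0.78, -0.79 and -0.72 in vehicle and -0.60, -0.73, -0.39 and -0.65 in Y+I, a difference of 0.23 ± 0.11 (SE, limma adjusted p = 0.348). Here the overlap came from vehicle animal 4 and Y+I animal 2 alone, whose values were nearly equal. The Dnaja1 probe lies at chr5:58110714-58111203 and the Hsph1 probe at chr12:5809732-5809791 on rn4. The intervals ran from 0.995-fold to 1.41-fold for Dnaja1 and from 0.991-fold to 1.40-fold for Hsph1.

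Bag3, which links Hsp70 to autophagy, measured 0.49, 0.48, 0.37 and 0.42 in vehicle and 1.02, 0.76, 0.64 and 0.34 in Y+I. In 3 of the Y+I animals Bag3 was above all vehicle animals and in Y+I animal 4 it was below them, and the difference was 0.25 ± 0.14 (SE, limma adjusted p = 0.444). Dnajb1, the main partner of inducible Hsp70, measured 0.34, 0.43, 0.26 and 0.31 in vehicle and 0.39, 0.38, 0.40 and 0.58 in Y+I, a difference of 0.10 ± 0.09 (SE, limma adjusted p = 0.649).

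Dnajb5, a further DnaJ gene, had the widest interval of all members. It measured -1.73, -1.53, -2.21 and -1.68 in vehicle and -0.83, -2.77, -0.87 and -1.58 in Y+I. The lowest of the 8 animals and the 2 highest were thus all given Y+I, and the SD was 0.91 there against 0.29 in vehicle. The difference was 0.27 ± 0.40 (SE, limma adjusted p = 0.801), and leaving out Y+I animal 2 raised it to 0.69 (limma adjusted p = 0.191).

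The small heat shock proteins Hspb1 and Cryab, which hold unfolded proteins until Hsp70 takes them over, stood on opposite sides of 0. Cryab, which is also abundant in oligodendrocytes, measured 3.26, 2.91, 2.74 and 3.01 in vehicle and 3.16, 3.79, 3.01 and 3.31 in Y+I, a difference of 0.34 ± 0.18 (SE, limma adjusted p = 0.424). Vehicle animal 1 lay above 2 of the Y+I animals. The summed signal of 10 oligodendrocyte markers, all 10 measured, ranged from 7.41 to 7.55 in vehicle and from 7.40 to 7.76 in Y+I, and 1 of the 10, Aspa, rose by 0.72 ± 0.13 (SE, limma adjusted p = 0.0289). Their part in the Cryab values was not tested, and in bulk tissue more cells of a type and more RNA per cell cannot be told apart. Hspb1, which in brain is found mainly in vessels and glia, measured -2.08, -1.94, -1.56 and -1.69 in vehicle and -2.22, -2.08, -1.63 and -2.09 in Y+I, a difference of -0.19 ± 0.16 (SE, limma adjusted p = 0.637). The summed signal of 12 endothelial and mural markers, all 12 measured, ranged from 4.17 to 4.21 in vehicle and from 3.84 to 4.08 in Y+I, and 1 of the 12, the receptor gene Kdr, fell by 1.03 ± 0.13 (SE, limma adjusted p = 0.00932). At an unadjusted limma p under 0.05, 5 of these 12 markers were lower in Y+I (9.16% of all features) and 0 higher (6.46%). Their part in the Hspb1 values was not tested.

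In mitochondria, the chaperonin genes Hspd1 (Hsp60) and Hspe1 (Hsp10) had differences close to 0. Hspd1 measured 3.54, 3.69, 3.48 and 3.49 in vehicle and 3.55, 3.66, 3.55 and 3.43 in Y+I, a difference of -0.0031 ± 0.095 (SE, limma adjusted p = 0.991). For Hspe1 the difference was -0.0096 ± 0.12 (SE, limma adjusted p = 0.980), and its values were 3.97, 3.98, 4.08 and 3.97 in vehicle and 3.88, 4.28, 3.82 and 3.98 in Y+I. Both intervals lay within 1.5-fold, and a second Hspe1 probe gave 0.01. Over all heat shock members, 9 of 14 differences were above 0 and 5 below, where 54.1% of all features were below 0. The median was 0.10, beside -0.02 over all features.

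Members of the endoplasmic reticulum also gave 0 of 16 at the adjusted threshold, where 2.33% of all features passed. At an unadjusted limma p under 0.05 they again gave 0 of 16, where 15.6% of all features passed. Of the 16 differences 9 were above 0 and 7 below, with a median of 0.04 and a range of -0.33 to 0.25. The sensor gene Ern1, whose product splices the Xbp1 messenger RNA, was dim, at -6.56, -6.26, -6.18 and -6.01 in vehicle and -6.31, -6.74, -6.22 and -5.48 in Y+I. It was well above background on all 4 vehicle arrays and on 1 of the 4 Y+I arrays. Its difference was 0.06 ± 0.25 (SE, limma adjusted p = 0.935). Atf6, which is cut to release a transcription factor, measured -2.56, -2.86, -2.62 and -2.73 in vehicle and -3.26, -2.79, -2.66 and -2.55 in Y+I, a difference of -0.12 ± 0.16 (SE, limma adjusted p = 0.766). Y+I animal 1 lay below the other 7 animals. A second Atf6 probe gave -0.01, but it was dim, with means of -6.26 in vehicle and -6.27 in Y+I. That probe was well above background on all 4 vehicle arrays and on 1 of the 4 Y+I arrays.

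The transcription factors further down did not move as a group. Xbp1 measured 1.39, 1.35, 1.47 and 1.32 in vehicle and 1.34, 1.61, 1.43 and 1.36 in Y+I, a difference of 0.05 ± 0.10 (SE, limma adjusted p = 0.838). The array reads the total Xbp1 messenger RNA by 1 probe, and the spliced form was not measured apart. Atf4 measured 3.39, 3.31, 3.49 and 3.37 in vehicle and 3.21, 3.52, 3.20 and 3.00 in Y+I, a difference of -0.15 ± 0.12 (SE, limma adjusted p = 0.604). Atf4 was below all vehicle animals in 3 Y+I animals and above them in Y+I animal 2. Ddit3, a target of Atf4 that favours cell death under lasting stress, measured 2.31, 2.19, 2.22 and 2.12 in vehicle and 2.29, 2.64, 2.06 and 2.61 in Y+I, a difference of 0.19 ± 0.14 (SE, limma adjusted p = 0.571). Its Y+I values were split, with animals 2 and 4 above the vehicle range and animal 3 below it.

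Of the chaperones of the endoplasmic reticulum, Hspa5 and Hsp90b1 are the main ones. Hspa5 (BiP), the Hsp70 of this compartment and a standard readout of its stress, measured 3.56, 3.83, 3.94 and 3.73 in vehicle and 3.75, 3.83, 3.82 and 3.47 in Y+I. The difference was -0.05 ± 0.12 (SE, limma adjusted p = 0.894), with an interval of 0.797-fold to 1.17-fold, and the probe lies at chr3:13787739-13787798 on rn4. Hsp90b1 (Grp94), its Hsp90, measured 1.46, 1.70, 1.38 and 1.45 in vehicle and 1.78, 1.61, 1.78 and 1.58 in Y+I, a difference of 0.19 ± 0.11 (SE, limma adjusted p = 0.436). Vehicle animal 2 lay between the Y+I animals and the other 3 vehicle animals below them. Both genes carry the endoplasmic reticulum element shown above in capitals.

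The lectin chaperone gene Calr ranged from 0.83 to 1.57 in vehicle and from 1.22 to 1.68 in Y+I, a difference of 0.21 ± 0.17 (SE, limma adjusted p = 0.607). The protein disulfide isomerase genes Pdia4 and Pdia6 gave -0.05 ± 0.10 and 0.03 ± 0.15 (SE), with limma adjusted p-values of 0.857 and 0.946. Pdia4 measured -3.90 to -3.70 in vehicle and -3.98 to -3.68 in Y+I. Pdia6 was lowest in Y+I animal 2 (2.18) and next lowest in vehicle animal 1 (2.31). Sdf2l1, a partner of the Hspa5 complex, gave -0.07 ± 0.11 (SE, limma adjusted p = 0.807) and -0.19 at its second probe. Herpud1, which serves the disposal of misfolded proteins from the endoplasmic reticulum, gave 0.04 ± 0.09 (SE, limma adjusted p = 0.886), with values of 0.52 to 0.70 in vehicle and 0.50 to 0.68 in Y+I.

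Manf and Creld2 are secreted or lumenal proteins induced by endoplasmic reticulum stress. Manf, a factor with trophic action on neurons, measured 0.28, 0.61, 0.49 and 0.40 in vehicle and 0.68, 0.38, 0.70 and 0.65 in Y+I, a difference of 0.16 ± 0.11 (SE, limma adjusted p = 0.569). Animals 1, 3 and 4 of Y+I were above all vehicle animals. Creld2 measured -1.80, -1.54, -1.47 and -1.61 in vehicle and -1.53, -2.31, -1.42 and -2.10 in Y+I, a difference of -0.24 ± 0.20 (SE, limma adjusted p = 0.630). Y+I animals 2 and 4 were below every vehicle animal and the other pair inside or above their range.

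Trib3 and Asns are targets of Atf4, the former a pseudokinase that restrains Atf4 itself and the latter the asparagine synthetase. They stood on opposite sides of 0. Trib3 measured -5.82, -5.90, -5.74 and -5.74 in vehicle and -5.68, -6.61, -6.31 and -5.92 in Y+I, a difference of -0.33 ± 0.19 (SE, limma adjusted p = 0.454). It was well above background on all 4 vehicle arrays and on 2 of the 4 Y+I arrays, so the lower values rest on dim spots. Asns measured 0.87, 1.15, 1.00 and 1.02 in vehicle and 1.60, 0.95, 1.22 and 1.28 in Y+I, a difference of 0.25 ± 0.14 (SE, limma adjusted p = 0.444). Y+I animals 1, 3 and 4 were above all vehicle animals and Y+I animal 2 was inside their range. In Trib3 and Asns, as in Hsp90ab1, Manf and Pdia6, Y+I animal 2 was the lowest of its group. Over all 30 members this animal was the lowest of its group in 11 and the highest in 10.

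Of the related genes outside the set, Creb3l1 and Cebpb passed the adjusted threshold, where 2.33% of all features did. The number of genes measured is given list by list. Of 37 measured cytosolic chaperones and co-chaperones 0 passed the adjusted threshold in limma, and 5 had an unadjusted p under 0.05, 2 of them higher in Y+I, where 15.6% of all features did. The smallest p belonged to Bag5, a brain co-chaperone of Hsp70, which measured 2.05, 2.09, 2.09 and 2.06 in vehicle and 2.35, 2.69, 2.43 and 2.69 in Y+I (limma adjusted p = 0.0660), and to Dnajb2, a DnaJ gene of neurons, with a difference of -0.34 ± 0.10 (SE, limma adjusted p = 0.135). The groups did not overlap in either gene, as was so for 11.7% of all features. Bag5 passed in 4 of the 20 other ways of processing.

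In mitochondria 0 of 10 related genes passed in limma, where 2.33% of all features did. Only 1 of the 10 had an unadjusted limma p under 0.05, where 15.6% of all features did. This was the protease gene Lonp1, with a difference of -0.27 ± 0.11 (SE, limma adjusted p = 0.286), followed by the Hsp90 gene Trap1 at -0.17 ± 0.10 (SE, limma adjusted p = 0.455). Among 15 other chaperones and folding enzymes of the endoplasmic reticulum 0 passed in limma and 0 had an unadjusted p under 0.05, with Hyou1, an exchange factor of Hspa5, at -0.27 ± 0.16 (SE, limma adjusted p = 0.480) and the prolyl isomerase gene Ppib at 0.11 ± 0.10 (SE, limma adjusted p = 0.674). Among 13 genes of endoplasmic reticulum associated degradation both counts in limma were again 0, with Selenos at 0.24 ± 0.12 (SE, limma adjusted p = 0.362) and Derl3 at 0.36 ± 0.19 (SE, limma adjusted p = 0.396). These genes move misfolded proteins out to the proteasome.

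Creb3l1 and Cebpb were the only genes of the 6 related lists that passed, where 0.739% of all features rose and 1.6% fell. Creb3l1 (OASIS), a membrane-bound transcription factor of the Atf6 family, was the 1 that rose of 14 measured sensors and transcription factors of the unfolded protein response, and 0 fell. It measured -1.78, -1.40, -2.02 and -2.06 in vehicle and -1.05, -1.25, -0.98 and -1.03 in Y+I. Every Y+I animal was above every vehicle animal, and the difference was 0.74 ± 0.16 (SE, limma adjusted p = 0.0476), or 1.67-fold. It passed in 10 of the 20 other ways of processing and in 1 of the 8 fits that left out 1 animal, the fit without vehicle animal 2. Its adjusted p was highest without vehicle animal 4 (limma adjusted p = 0.151).

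Cebpb, a transcription factor that pairs with Ddit3 and Atf4 and also serves cytokine and cyclic AMP signals, was the 1 that rose of 27 measured targets of the integrated stress response, and 0 fell. It measured 1.86, 1.61, 1.28 and 1.43 in vehicle and 2.39, 2.69, 2.14 and 2.69 in Y+I. The groups did not overlap, and the difference was 0.93 ± 0.17 (SE, limma adjusted p = 0.0298), or 1.91-fold. It passed in 12 of the 20 other ways of processing and in 2 of the 8 fits that left out 1 animal, those without vehicle animal 1 or Y+I animal 3, with the highest value without vehicle animal 4 (limma adjusted p = 0.101). Of the other 26 targets, 3 had an unadjusted limma p under 0.05, 2 higher and 1 lower. The median over all 27 was -0.0039, beside -0.02 over all features.

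**Figure D4:**
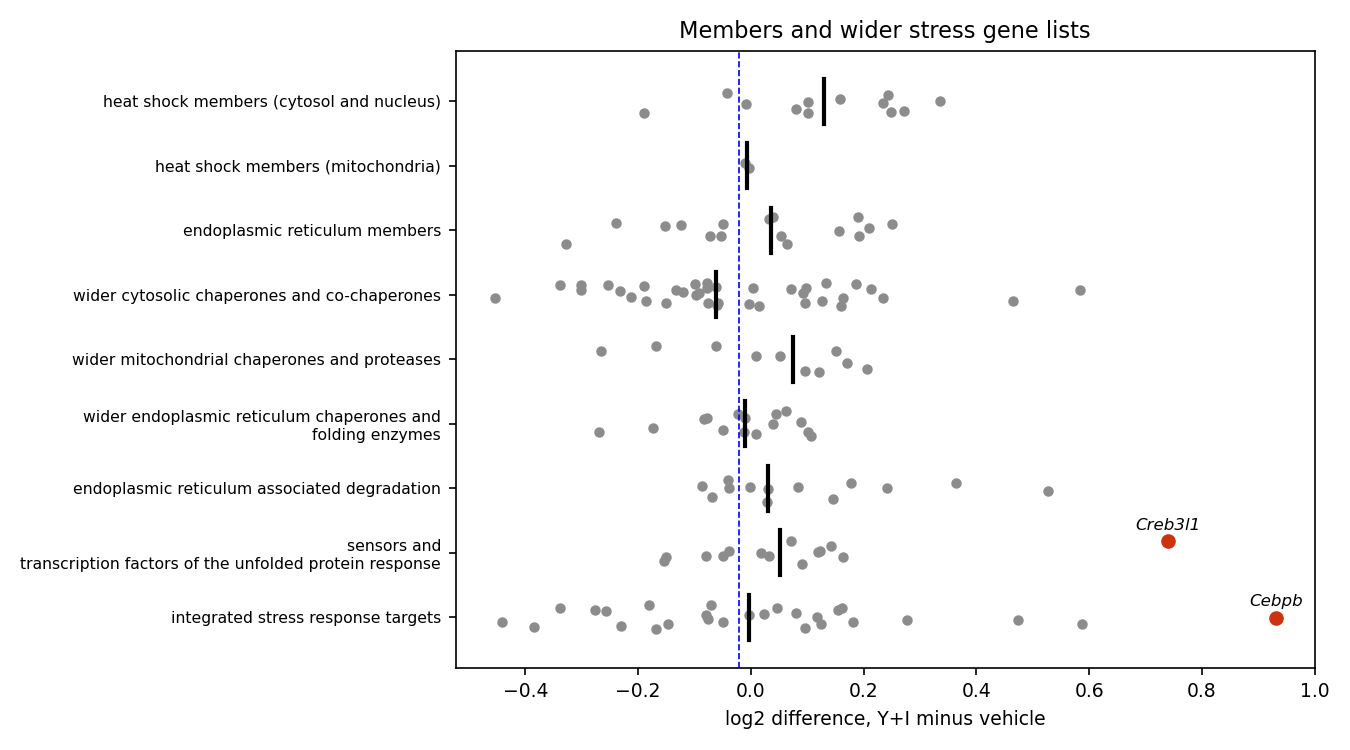
Log2 difference between Y+I and vehicle (horizontal axis) for each measured gene of the members' lists and of the 6 related lists (1 line of points per list); black bars are list medians, the dashed blue line is the median of all features at -0.02, and red points passed the adjusted threshold. Creb3l1 at 0.74 and Cebpb at 0.93 are the 2 that passed.

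Markers of cell types gave the background of the tissue. All 10 hippocampal and other excitatory neuron markers were measured, 8 of them well above background on all 8 arrays, with Prox1 and Dsp so on 2 of the 4 Y+I arrays. Their summed signal ranged from 3.30 to 3.58 in vehicle and from 3.68 to 4.38 in Y+I, and Camk2a rose. Of the 10, 5 were higher (6.46% of all features) and 1 lower (9.16%) at an unadjusted limma p under 0.05. Of 10 meningeal and fibroblast markers 4 fell (Col1a1, Slc6a13, Igfbp2 and Vtn), with a summed signal of 3.45 to 3.95 in vehicle and 3.15 to 3.53 in Y+I. Of 12 thalamus, habenula and striatum markers Drd2 and Slc17a6 fell and Tac3 rose. At an unadjusted limma p under 0.05, 7 of the 12 were lower and 1 higher, and the median difference of the list was -0.55. The summed signal of the 12 ranged from 3.17 to 3.44 in vehicle and from 3.17 to 3.42 in Y+I. Meanwhile 0 of 10 astrocyte markers and 0 of 10 microglia markers passed in limma, with 1 and 2 lower at an unadjusted p under 0.05. Of 5 blood cell markers Hbb and Alas2 fell, while 2 others were higher at an unadjusted limma p under 0.05. The median difference of this list was 0.11, and its summed signal was 3.93 to 4.14 in vehicle and 2.77 to 3.42 in Y+I. Further, of 5 choroid plexus markers 0 passed in limma, with 1 higher and 1 lower at an unadjusted p under 0.05. Kdr, Col1a1 and Slc6a13 passed in all 8 fits that left out 1 animal. Aspa lost its call in 5 of them, Tac3 in 4, Hbb in 3, Drd2, Slc17a6 and Vtn in 6 each, Igfbp2 and Alas2 in 7 each and Camk2a in 8. Their part in the values of Creb3l1 and Cebpb was not tested.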

How the data were processed

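Total hippocampal RNA was labelled with Cy3 and hybridised to Agilent 1-colour rat arrays, per the labels' protocols. Per the file headers, the scanner images went through Agilent Feature Extraction 10.5.1.1, and the processed intensity deposited by the authors is background-subtracted and not normalised between arrays. The authors also deposited a value table of log2 values, for which no source used here states the centring. Its medians were -3.51 to -3.35, its slope against the scanner values 0.997, and it lay 0.59 to 0.67 log2 units above the values used here, so it served as an alternative only.

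Groups and animal numbers come from the sample titles, which number 4 animals per group. Log2 processed intensity was centred on each array's 75th percentile of noncontrol spots. Non-uniform spots and population outliers were set to missing, the spots of a probe were averaged, and 21370 of 30367 probes were kept. A kept probe had 50% or more of its spots well above background on each of the 4 arrays of one group or the other, and 3 or more values per group. Of the members' 40 probes 39 were kept, and all 30 members on the array passed, Ern1 and Trib3 through vehicle. Each gene is given by its brightest kept probe, and other kept probes are named beside it. Symbols were updated through RefSeq assembly GRCr8 (18004 probes by accession, 2320 by symbol, 626 by synonym, 1999 by the name in the file, 7418 without one). Probe coordinates follow the array design (rn4), and the part of the transcript under a probe was not annotated. No spot was saturated, and precision is limited by the number of arrays.

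Differences between groups were fitted in R 4.3.3 with limma 3.58.1 (lmFit, eBayes). P-values are two-sided and were adjusted by Benjamini-Hochberg over 18803 features, with a threshold of 0.05. The procedure was tested on simulated data. These gave both groups the same spread and held no dim probes, unlike the arrays here. Members, lists and tests were chosen with earlier results of these data known. All members are named, and of each related list the genes past the threshold or otherwise the 2 with the smallest p, and of each marker list those past the threshold. The difference along a transcript was taken between its first and last kept probe where these lay at least 300 bases apart. Alternatives covered normalisation, background correction, filters, probe summary, the variance model, array weights, a replicate block, and arrays left out. Figures were drawn with matplotlib 3.10.9.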

Additional observations from a re-analysis of the deposited data

Results flagged for a closer look

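Among 110 groups of 4 animals tested (both groups of 55 genes, namely the 30 measured members and 25 genes of the related and marker lists), 9 held 1 animal far from the other 3, where chance gives about 1 in 20. Y+I animal 1 measured -1.20 for Hspa1b, against -1.28 in each of the other 3. Y+I animal 2 measured 5.56 for Hsp90aa1 (others 5.16 to 5.19) and 0.38 for Manf (others 0.65 to 0.70). Y+I animal 4 measured 0.58 for Dnajb1 (others 0.38 to 0.40). Vehicle animal 1 measured 3.83 for Hsp90ab1 (others 4.10 to 4.12) and 0.70 for Herpud1 (others 0.52 to 0.55), and vehicle animal 3 measured 4.08 for Hspe1 (others 3.97 to 3.98). Outside the members, Y+I animal 1 measured 1.58 for Hyou1 (others 2.05 to 2.10) and Y+I animal 4 measured -0.17 for the thalamic marker Slc17a6 (others -0.96 to -0.84). All values are log2 signal relative to the 75th percentile of the array.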

How the results depend on the processing

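The count of members past the adjusted threshold in limma was 0 under all 20 alternatives, among them the 8 that left out 1 animal. The median difference was 0.07 to 0.15 for heat shock members and -0.04 to 0.04 for endoplasmic reticulum members when 1 animal was left out. With an unadjusted limma p under 0.05, 0 to 5 members passed, the most without Y+I animal 2 (5 of 30, where 17.0% of all features did), and the share of all features ran from 12% to 26.9%. Over all features, 713 changed with cyclic loess, 3887 with no filter on background, 144 with the replicate block and 170 without Y+I animals 2 and 3 together, which leaves 2 Y+I arrays, against 439. With normexp 604 changed, 66.4% of them higher, against 31.7%; the higher share was 86.5% with no filter and 43.3% with a filter on all 8 arrays. The median of all features was 0.09 under normexp. Leaving out 1 animal gave 120 to 348, with 120 without vehicle animal 4, 193 without vehicle animal 2, 194 without vehicle animal 3, 201 without vehicle animal 1, 261 without Y+I animal 1, 279 without Y+I animal 4 and 285 without Y+I animal 2. The cause of these shifts was not tested, except that fits with fewer samples or other features differ by construction.

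Differences that changed sign were small or dim, and in none of these fits did a member pass. With median centring Hsf1 was at 0.00989, Hspd1 at 0.015 and Hspe1 at 0.00798, and with the deposited value table at 0.0097, 0.014 and 0.00779. Cyclic loess gave -0.27 for Ern1 and 0.092 for Pdia4, and array weights gave -0.015 for Ern1. Normexp gave 0.12 for Pdia4, 0.22 for Trib3 and 0.15 for the choroid plexus marker Sostdc1, against -0.86. The mean of kept probes gave -0.068 for Hspa8. Without Y+I animals 2 and 3 together, Hsf1 was at 0.035, Xbp1 at -0.031, Sdf2l1 at 0.0037 and Trib3 at 0.0025. When 1 animal was left out, ranges that crossed 0 were -0.21 to 0.024 (Atf6), -0.17 to 0.25 (Ern1), -0.055 to 0.021 (Hsf1), -0.14 to 0.0075 (Hsp90aa1), -0.12 to 0.035 (Hspa5), -0.040 to 0.044 (Hspd1), -0.11 to 0.048 (Hspe1), -0.045 to 0.16 (Pdia6) and -0.0055 to 0.086 (Xbp1).

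Same-numbered animals did not deviate together (correlations of 0.05, -0.18, -0.10 and 0.04 over 17069 probes). Low correlations cannot show that the animals were unpaired, and the labels do not say whether the numbers pair them. With the replicate block Creb3l1 and Cebpb did not pass (limma adjusted p = 0.150 and 0.0664). The share of spots well above background limits Ern1 and Trib3, the pair of members whose brightest probe was dim on some Y+I arrays. It also limits the second Atf6 probe.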

Other observations

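Within vehicle, animal 1 was the lowest of its group in 15 of the 30 members and the highest in 5, and animal 3 was the lowest in 6 and the highest in 13. Over all features with values in every vehicle animal, animal 1 was the lowest in 5983 and the highest in 4911 of 18798, and animal 3 was the lowest in 4904 and the highest in 6023. The summed signal of the 12 measured cytosolic and nuclear heat shock members was 7.35, 7.43, 7.55 and 7.39 in vehicle animals 1 to 4 and 7.41, 7.66, 7.38 and 7.62 in Y+I animals 1 to 4 (log2 scale). That of the 16 endoplasmic reticulum members was 5.53, 5.67, 5.71 and 5.60 in vehicle and 5.66, 5.70, 5.66 and 5.59 in Y+I. Each sum is led by its brightest probes.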
